A study of Mus musculus with 12 samples.

Results

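The Schlafen (Slfn) genes encode a mammalian family of interferon-inducible proteins that act on RNA and on the growth of immune cells. Every gene whose symbol begins with Slfn was taken from the authors' deposited tables, which gave 8 genes of the 2038 listed in all: Slfn1, Slfn2, Slfn3, Slfn4, Slfn5, Slfn8, Slfn9 and Slfn14. RNA had been sequenced from mouse monocytes that had been taken from bone marrow, sorted magnetically (MACS) and cultured with 20 ng/mL M-CSF, a cytokine under which monocytes become macrophages. For 12 h or 24 h the cultures also held 100 U of the type I interferon IFNβ, or no interferon. There were 4 groups with 3 samples each: controls (M-CSF alone) at 12 h and at 24 h, and M-CSF with IFNβ at 12 h and at 24 h. All 4 groups therefore received M-CSF, and the labels used here name no strain, age or sex. Each of the 3 tables lists only the genes that the authors called changed in one comparison, which were the genes past both of their thresholds (adjusted p 0.05, log2 fold change 1 in either direction). Absence from a table therefore does not show that a gene was stable, and each library's total depth is unknown.

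Of the 8 genes, 7 were listed for IFNβ against control at 12 h, among 1388 genes, and all 7 were higher with IFNβ. Slfn14 was the one listed for 24 h against 12 h, among 645 genes in the controls and among 602 genes with IFNβ, and it was lower at 24 h in both. None was among the 5 genes of a deposited table of fold changes at 24 h. The reference annotation (GENCODE M21, GRCm38) holds 11 Slfn symbols, and the 3 that no table listed are Slfn5os, an antisense RNA, the pseudogene Slfn10-ps and Slfnl1, a more distant relative on chromosome 4.

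Schlafen proteins share an amino-terminal core that, in several members, binds and cuts transfer or ribosomal RNA. The mouse family has a short class (Slfn1 and Slfn2) that is little more than this core, an intermediate class (Slfn3 and Slfn4), and a long class (Slfn5, Slfn8, Slfn9 and Slfn14) with an added helicase-like region. In immune cells the family is known for holding cells in quiescence, for which Slfn2 is the best studied, and for restricting viruses after interferon by limiting protein synthesis. Type I interferon acts through the receptor, JAK kinases and a transcription factor complex with STAT2 and IRF9 that binds interferon-stimulated response elements (ISREs) in DNA.

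The coding sequences fell into these classes. Without the stop codon they hold 337 codons in Slfn1, 378 in Slfn2, 602 in Slfn4, 640 in Slfn3, 884 in Slfn5, 899 in Slfn14, and 910 in both Slfn8 and Slfn9. The closest pair was Slfn8 and Slfn9, with 92.7% identical bases over their aligned coding sequences, followed by Slfn3 and Slfn4 with 86.2%. Slfn1 and Slfn2 shared 66.1%, and Slfn5 shared 61.1% with Slfn8 and 61.2% with Slfn9. The stretch below, the longest that Slfn8 and Slfn9 share without a difference within their coding sequences (139 bases, from coding base 2540 of each), is shown because a read that falls inside it cannot be assigned to either gene from its sequence.
Slfn8 and Slfn9: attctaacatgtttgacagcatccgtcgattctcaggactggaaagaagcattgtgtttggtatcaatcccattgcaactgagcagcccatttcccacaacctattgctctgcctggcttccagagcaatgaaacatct

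Promoter windows were read from RefSeq (GRCm38.p6), 250 bases before to 50 after the annotated start, and all 8 genes had one. They were searched on both strands for the core of the ISRE, GAAA and GAAA separated by any 2 bases. The core was found in the windows of 3 of the 8 genes, Slfn5, Slfn8 and Slfn9, and in 3.44% of the 32851 promoter windows of the same table. The gamma-activated site, TTC and GAA separated by any 3 bases, was in 0 of the 8 and in 8.30% of all windows. A match is a string of letters, not a known binding site, and a window without one says only that these letters are not in it.

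The 250 bases upstream of Slfn8 (chr11:83020811-83021060, minus strand) and of Slfn9 (chr11:82991831-82992080, minus strand) are shown because these neighbours carry the same core at nearly the same place. In capitals is the match, which lies on the opposite strand and so reads TTTC, 2 bases, TTTC. It spans bases 48 to 39 upstream of the Slfn8 start and 45 to 36 upstream of the Slfn9 start. RefSeq gives Slfn8 a further start nearby, whose window holds the same match. For Slfn5 only the 30 bases around the match are shown (chr11:82951937-82951966, plus strand, the match at bases 155 to 146 upstream), since part of that window lies in annotated exons. The 250 bases upstream of Slfn4 (chr11:83174936-83175185, plus strand) and of Slfn1 (chr11:83116570-83116819, plus strand) are given as the windows, without either match, of the genes with the largest differences described next.
Slfn8: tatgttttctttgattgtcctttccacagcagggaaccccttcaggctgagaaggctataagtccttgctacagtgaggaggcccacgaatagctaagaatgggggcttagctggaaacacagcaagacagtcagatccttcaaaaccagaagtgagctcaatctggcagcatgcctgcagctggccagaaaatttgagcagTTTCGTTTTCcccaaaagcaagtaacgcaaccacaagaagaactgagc
Slfn9: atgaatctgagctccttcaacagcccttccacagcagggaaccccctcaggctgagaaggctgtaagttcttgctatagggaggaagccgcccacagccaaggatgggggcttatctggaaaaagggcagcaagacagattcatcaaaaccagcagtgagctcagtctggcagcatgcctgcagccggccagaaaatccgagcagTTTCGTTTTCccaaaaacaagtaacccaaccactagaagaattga
Slfn5: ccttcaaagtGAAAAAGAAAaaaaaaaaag
Slfn4: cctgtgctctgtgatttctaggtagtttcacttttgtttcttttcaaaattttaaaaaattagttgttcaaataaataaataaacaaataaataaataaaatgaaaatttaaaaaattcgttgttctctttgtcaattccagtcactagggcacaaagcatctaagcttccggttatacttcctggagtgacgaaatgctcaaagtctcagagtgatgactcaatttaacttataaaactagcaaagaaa
Slfn1: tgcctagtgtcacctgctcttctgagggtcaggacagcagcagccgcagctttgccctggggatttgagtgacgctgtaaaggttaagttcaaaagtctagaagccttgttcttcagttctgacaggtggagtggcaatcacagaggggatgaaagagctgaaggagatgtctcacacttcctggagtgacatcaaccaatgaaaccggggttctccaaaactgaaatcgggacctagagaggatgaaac
The upstream stretches of Slfn8 and Slfn9 were 80.5% identical, 206 of 256 aligned positions.

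At 12 h the comparison of IFNβ with control asks which genes the monocytes change when they meet type I interferon early in their differentiation. All 7 listed Slfn genes were higher with IFNβ, by 3.03-fold to 83.1-fold, and in none of them did the control and IFNβ libraries overlap, as held for 1365 of the 1388 genes listed in this table (98.3%). Slfn4 had the largest difference, the other strongly changed genes were Slfn1, Slfn5, Slfn8 and Slfn9, and Slfn2 and Slfn3 had the smallest. As background, the authors' table calls 5.7% of the genes tested higher at 12 h, and limma run on the listed genes (adjusted p under 0.05, Benjamini-Hochberg over the 15661 genes tested) calls 5.32%; 8.86% were listed in either direction. Listed genes had been selected for small p-values, so limma describes them and is no independent test. Levels below are the authors' normalized counts per library, which are not corrected for gene length, while a log2 difference is taken after adding 1 to each count and carries limma's standard error (n = 3 per group). Whether replicates came from separate animals is not stated, so p-values speak only for the variation between these libraries, which may be technical. In a bulk sample, fewer cells carrying a transcript and less RNA per cell cannot be told apart.

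**Figure D1:**
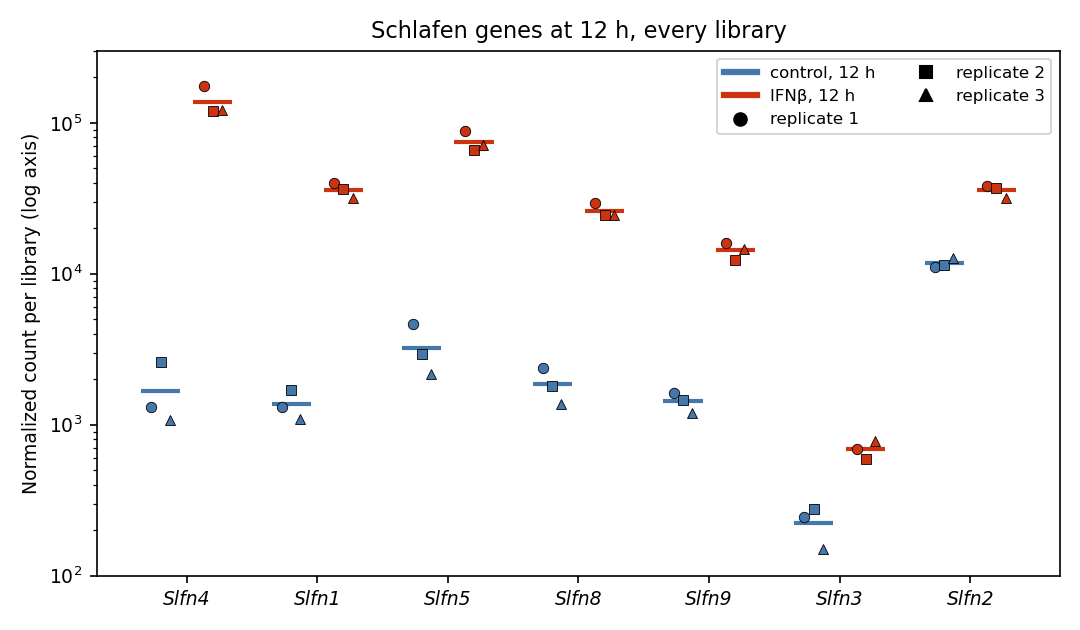
Normalized counts (log axis) of the 7 Slfn genes listed for IFNβ against control at 12 h, one symbol per library and a bar at each group mean. The lowest IFNβ library lies above the highest control library in each of the 7, as non-overlap is the rule among listed genes (98.3%); Slfn2 has the highest control level and Slfn4 the highest level with IFNβ.

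Slfn4, an intermediate-class gene known for its expression in myeloid cells and its link to macrophage activation, was at 1316, 2599 and 1079 normalized counts in control replicates 1, 2 and 3. With IFNβ it was at 174046, 119745 and 121057. Control replicate 2 stood above the other controls, and every IFNβ library was far above all of them. The means were 1665 ± 818 and 138283 ± 30979 (SD, n = 3), an 83.1-fold difference, or 6.46 ± 0.28 on the log2 scale (limma adjusted p = 7.52e-09). Its level with IFNβ was the 4th highest of the 1388 listed genes. Control replicate 2 was also the 12 h control with the highest count of the neutrophil marker Retnlg. In the table of 24 h against 12 h, Retnlg was at 2303, 5331 and 2620 in control replicates 1, 2 and 3 at 12 h. Of the 9 neutrophil markers only Retnlg was listed in any comparison, so the levels of the others are unknown. For IFNβ at 12 h, 0 of the 9 were listed, where 8.86% of all genes tested were. A count over so short a list is not read as a result. The part of neutrophil RNA in the Slfn4 control values was not tested.

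Slfn3, the near copy of Slfn4, is best known from T cells and the differentiating gut epithelium. It was the least abundant member, at 246, 275 and 150 normalized counts in the controls and 688, 595 and 775 with IFNβ. The groups were apart, but by far less than those of Slfn4. The means were 224 ± 65.2 and 686 ± 90.1 (SD, n = 3), 3.07-fold apart, with a log2 difference of 1.65 ± 0.25 (limma adjusted p = 0.000678).

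In the short class, Slfn1, whose forced expression is known to slow T cell growth, was at 1320, 1698 and 1091 normalized counts in the controls. With IFNβ it was at 40020, 36502 and 31528. All 3 IFNβ libraries were well above the controls. The difference was 26.3-fold between means of 1370 ± 306 and 36017 ± 4267 (SD, n = 3), or 4.73 ± 0.19 on the log2 scale (limma adjusted p = 3.32e-09).

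Slfn2, whose loss breaks quiescence in T cells and monocytes, was already abundant without IFNβ, at 11082, 11450 and 12709 normalized counts. With IFNβ it reached 37889, 37030 and 31902. The libraries of each group were close together. The means of 11747 ± 853 and 35607 ± 3238 (SD, n = 3) differed 3.03-fold, a log2 difference of 1.60 ± 0.16 (limma adjusted p = 1.68e-05). With IFNβ, Slfn1 and Slfn2 had nearly equal counts in each library, whereas in the controls Slfn2 was far above.

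In the long class, Slfn5, a nuclear member studied as an antiviral factor and as a regulator of interferon-dependent transcription, was at 4621, 2929 and 2176 normalized counts in control replicates 1, 2 and 3. With IFNβ it reached 88210, 65535 and 70799. Replicate 1 was the highest in both groups. The means of 3242 ± 1252 and 74848 ± 11867 (SD, n = 3) were 23.1-fold apart, or 4.59 ± 0.25 on the log2 scale (limma adjusted p = 4.46e-08). The antisense RNA Slfn5os overlaps Slfn5 on the other strand, and no source used here says whether counting used strand, so the pair's reads cannot be told apart.

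Slfn8 was at 2370, 1812 and 1362 normalized counts in the controls and 29343, 24418 and 24493 with IFNβ. Its near copy Slfn9 was at 1631, 1458 and 1191, and at 15891, 12399 and 14509. In both genes replicate 1 was the highest control library and the highest IFNβ library. Slfn8 rose 14.1-fold, from 1848 ± 505 to 26085 ± 2822 (SD, n = 3), a log2 difference of 3.85 ± 0.20 (limma adjusted p = 3.55e-08). Slfn9 rose from 1427 ± 222 to 14266 ± 1759 (SD, n = 3), a log2 difference of 3.33 ± 0.17 (limma adjusted p = 3.29e-08).

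Read against the table, the 7 Slfn genes had a median log2 difference of 3.85 (1.60 to 6.46), where the 892 genes listed as higher had a median of 1.97 (0.98 to 9.75). By log2 difference among the 1388 listed genes, Slfn4 ranked 30th, Slfn1 81st, Slfn5 91st, Slfn8 139th and Slfn9 189th. Slfn3 ranked 567th and Slfn2 583rd. The authors' deposited table gives log2 fold changes of 6.38 for Slfn4, 4.72 for Slfn1, 4.53 for Slfn5, 3.82 for Slfn8, 3.32 for Slfn9, 1.62 for Slfn3 and 1.60 for Slfn2.

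**Figure D2:**
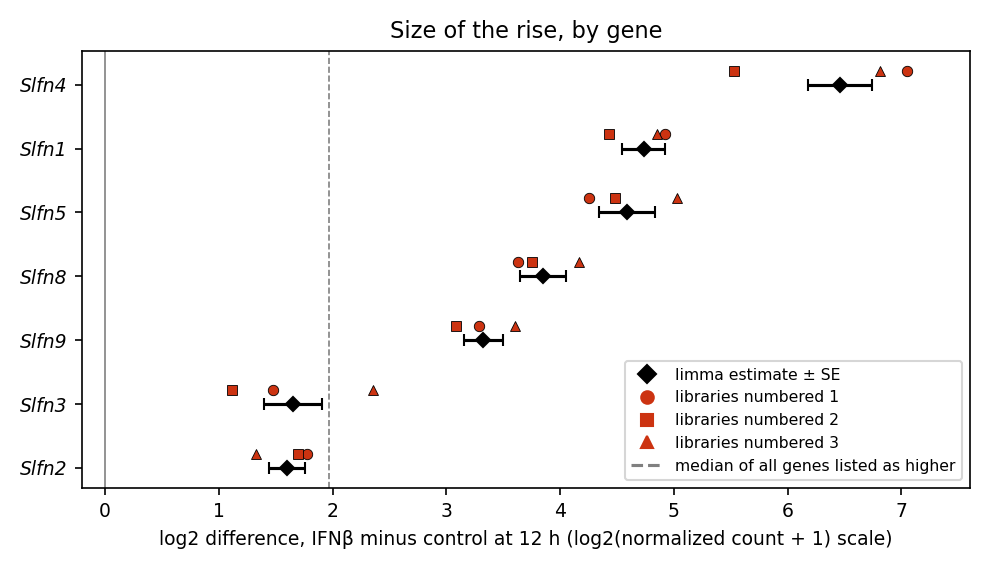
Log2 difference of IFNβ minus control at 12 h on the log2(normalized count + 1) scale, with limma's estimate ± SE (diamonds) and the difference between libraries of the same replicate number (small symbols). Slfn4 lies between 5.53 and 7.05 over the replicate numbers. The estimates of Slfn2 and Slfn3 lie below the median of all genes listed as higher (dashed line, 1.97). Slfn3 lies above that line for the libraries numbered 3 (2.36).

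Libraries with the same number deviated together from their group means, so they were also compared number by number. The log2 difference of Slfn4 was 7.05 in replicate 1, 5.53 in replicate 2 and 6.81 in replicate 3. That of Slfn5 was 4.25, 4.48 and 5.02, and that of Slfn3 was 1.48, 1.11 and 2.36. Slfn4 was above every other member in each replicate number. Slfn2 and Slfn3 changed places between numbers, with Slfn2 at 1.77, 1.69 and 1.33.

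The order of the differences was also read from ratios between members within a library, which cancel its scaling. Of the 21 pairs of the 7 genes, the ratio moved without overlap between the control and IFNβ libraries in 19. Over all 397386 pairs of the 892 genes listed as higher, 58.6% did so, and nothing particular to the family is read from the count. Each of the 19 Slfn pairs had an exact two-sided permutation p of 0.1, the smallest that 3 libraries against 3 allow. The lowest value adjusted over the 21 pairs was 0.111, so none passed the threshold. Slfn4 over Slfn3 moved the farthest among near copies: its log2 ratio was 2.83 ± 0.41 in the controls and 7.64 ± 0.35 with IFNβ (SD, n = 3). Slfn1 over Slfn2 went from -3.12 ± 0.40 to 0.01 ± 0.06. Slfn8 over Slfn9 moved less, from 0.35 ± 0.18 to 0.87 ± 0.11. The pairs whose ratio overlapped between the groups were Slfn1 with Slfn5 (a change of 0.15) and Slfn3 with Slfn2 (a change of 0.05), which are neighbours in the order of the differences.

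To compare members with each other, normalized counts were divided by the kilobases of annotated exon of each gene. On this per-kilobase scale Slfn2 held 74.5% ± 5.76 of the summed level of the 7 genes in the controls (SD, n = 3), and each of the others held under 10% in every control library. With IFNβ, Slfn4 held 35.9% ± 2.96, Slfn2 22.3% ± 2.13, Slfn1 20.1% ± 1.32 and Slfn5 12.3% ± 0.770. Slfn8 went from 4.77% ± 1.34 to 6.64% ± 0.267, with its IFNβ libraries (6.40% to 6.92%) above its controls (3.53% to 6.19%). Divided by coding length instead, its share was 4.45% ± 1.19 and 5.13% ± 0.227, and the groups overlapped. Slfn9 went from 2.52% ± 0.401 to 2.49% ± 0.279, so its share moved little. Slfn3 stayed under 1% in all libraries.

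**Figure D3:**
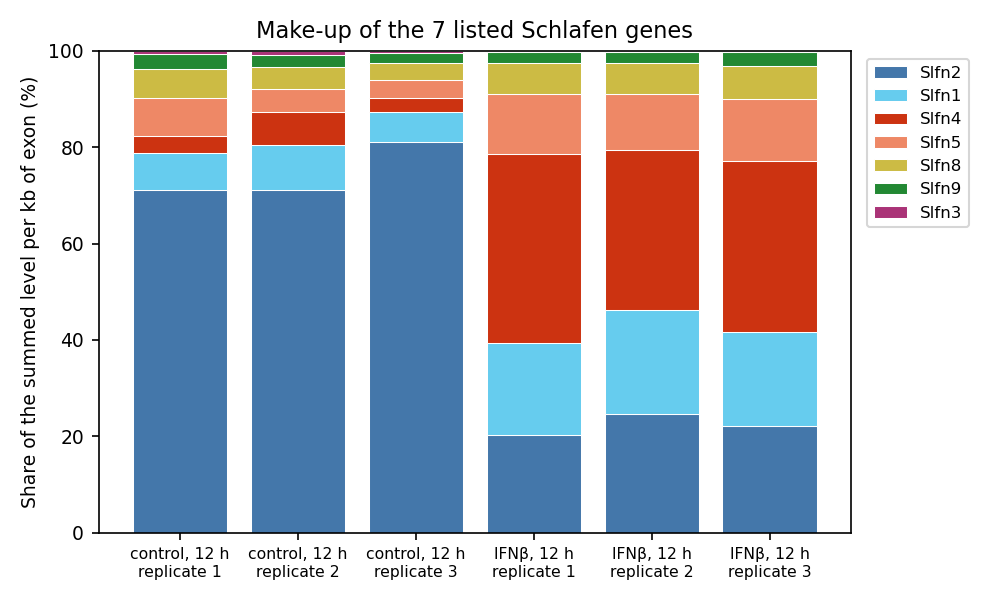
Share (%) of each Slfn gene in the summed per-kilobase level of the 7 listed genes, one bar per library at 12 h. Slfn2 fills 71.1% to 81.1% of the 3 control bars and 20.3% to 24.6% of the 3 IFNβ bars, where Slfn4 fills 33.3% to 39.2%.

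The summed per-kilobase level of the 7 genes was 9483 ± 172 in the controls and 96406 ± 13775 with IFNβ (SD, n = 3), 10.2-fold higher. Among the 1333 listed genes with an annotated length, Slfn2 ranked 12th by per-kilobase level in the controls and 17th with IFNβ, so it was among the most abundant listed transcripts in both. Slfn4 went from 261st to 7th, Slfn1 from 163rd to 22nd and Slfn5 from 231st to 41st. Slfn8 went from 251st to 85th, Slfn9 from 391st to 197th, and Slfn3 from 648th to 573rd. Dividing by coding length in place of exon length gave Slfn2 68.4% in the controls and 16.9% with IFNβ, and gave Slfn4 6.02% and 40.7%.

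Shared sequence bears on how far near copies can be separated. Of the 50-base windows along its transcript, 15.4% in Slfn8, 11.2% in Slfn9, 13.1% in Slfn3 and 8.37% in Slfn4 occurred in another Slfn gene, the pseudogene Slfn10-ps included. The share was 4.27% in Slfn2, 0.606% in Slfn1, and 0 in Slfn5 and Slfn14. Slfn9 and Slfn10-ps share an unbroken run of 236 bases, and Slfn4 and Slfn3 one of 95. How the authors' counting treated reads that match more than one gene is not stated, so the separate values of Slfn8 and Slfn9, and of Slfn3 and Slfn4, are uncertain to that extent. With IFNβ the mean count was 138283 for Slfn4 and 686 for Slfn3. A small share of Slfn4 reads counted to Slfn3 would therefore weigh heavily on the Slfn3 values. How much of the Slfn3 rise comes from shared reads was not tested. The counts of each pair were also summed, which was chosen after seeing the data. The log2 difference was then 3.64 ± 0.19 for Slfn8 with Slfn9 and 6.27 ± 0.28 for Slfn3 with Slfn4 (limma). The second sum is nearly all Slfn4 and does not describe Slfn3.

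All 8 genes lie in 1 cluster on chromosome 11, from base 82942341 to base 83286726 (GRCm38), a span of 344 kb that holds 10 of the 11 Slfn symbols and 0 other protein-coding genes. In the order along the chromosome the listed genes are Slfn5 (82951349 to 82964840, plus strand), Slfn9 (82978390 to 82991830, minus), Slfn8 (83002158 to 83020810, minus), Slfn2 (83065112 to 83070678, plus), Slfn1 (83116849 to 83122670, plus), Slfn4 (83175186 to 83190216, plus), Slfn3 (83191330 to 83215154, plus) and Slfn14 (83275110 to 83286726, minus). Position did not sort the genes by size of the difference: Slfn4 and Slfn3, which follow each other on the same strand, had the largest difference and one of the smallest.

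**Figure D4:**
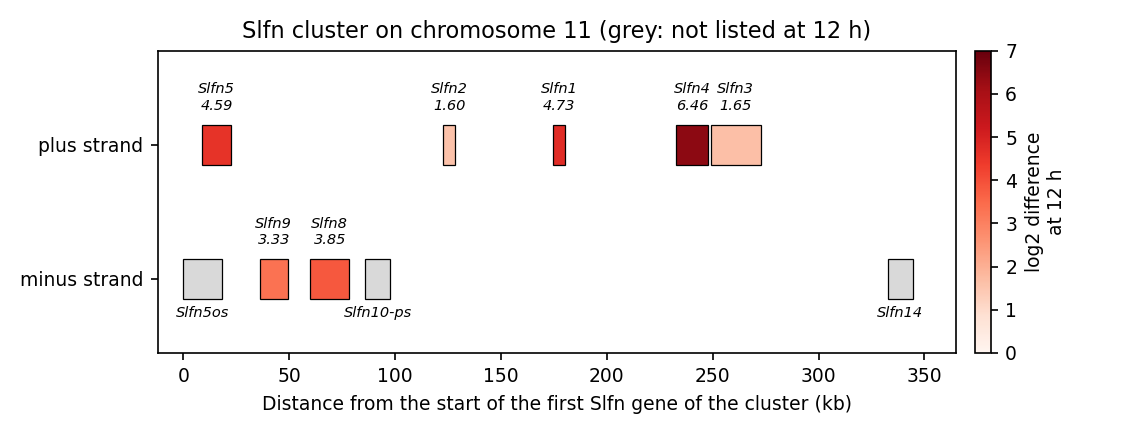
The Slfn cluster drawn to scale by gene start and end, as distance (kb) from the start of its first gene, on the 2 strands, coloured by the log2 difference of IFNβ minus control at 12 h (number above each gene). Slfn4 (6.46) stands directly before Slfn3 (1.65); grey genes were not listed at 12 h.

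Within 1 Mb of the cluster the annotation holds 83 other genes. Of these, 7 (all among the 42 that are protein-coding) were listed at 12 h, all higher with IFNβ and called by limma, with a median log2 difference of 4.09. Over all genes tested, 8.86% were listed and 5.7% listed as higher. How many of the 83, or of the 42, were among the genes tested is not known. These shares therefore have unlike bases, and the count is not read as a property of the neighbourhood. Among the 6 with the smallest adjusted p, 5 encode CC chemokines, which recruit leukocytes: Ccl12 (6.06 ± 0.49), Ccl2 (4.77 ± 0.36), Ccl5 (4.61 ± 0.27), Ccl4 (3.94 ± 0.20) and Ccl3 (2.04 ± 0.21; log2 difference ± SE). The sixth, Heatr9 (3.05 ± 0.46), starts 569 kb from the first base of the cluster and is at low counts, 2.74 ± 0.972 in the controls and 30.1 ± 8.85 with IFNβ (SD, n = 3). In time with IFNβ 7 of the 83 were listed, 5 higher and 2 lower at 24 h, and in time in the controls 0 were. Over all genes tested, 3.87% were listed for time with IFNβ and 4.08% in the controls.

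Of 15 genes of type I interferon signalling, 8 were listed at 12 h, all higher and all called by limma, and the other 7 were not listed; 8.86% of all genes tested were listed. The transcription factor gene Irf7 (log2 difference 6.23 ± 0.19) and Usp18 (5.07 ± 0.16), which restrains the receptor, changed the most. Of the ISRE-binding complex, Stat2 (3.46 ± 0.16) and Irf9 (1.65 ± 0.16) were higher, as was Irf1 (1.52 ± 0.15). In time, 1 of the 15 (Socs1, lower in the controls, not called by limma) was listed without IFNβ and 0 with it. The shares over all genes tested were 4.08% and 3.87%.

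Set beside the family were 33 other genes, chosen as interferon-inducible or general genes that cut RNA, sense it or restrain translation. Of these, 22 were listed at 12 h, all higher and all called by limma, with a median log2 difference of 4.42. Over all genes tested, 8.86% were listed and 5.7% listed as higher. Interferon-inducible genes were put on this list by choice, so its count at 12 h is not read as a result. The 6 with the smallest adjusted p included the Ifit genes Ifit1bl1 (9.19 ± 0.22), Ifit3 (7.94 ± 0.21), Ifit2 (7.02 ± 0.19) and Ifit1 (6.67 ± 0.16). The others were the oligoadenylate synthetase-like Oasl1 (7.54 ± 0.21) and the exonuclease gene Isg20 (6.18 ± 0.17). Slfn4 lay within the range of these 6 and the other Slfn genes below it. From 12 h to 24 h with IFNβ, 4 of the 33 were listed: Rnase4 (2.80 ± 0.26) and Ang (2.39 ± 0.46) were higher, and Isg20 (-1.14 ± 0.18) and Ifit1bl1 (-1.29 ± 0.22) were lower. In the controls 2 were listed as higher, and limma called 0 of them (1.18 ± 0.26 for Rnase4 with adjusted p = 0.0659, and 1.46 ± 0.34 for Ifit1bl1 with adjusted p = 0.0809). Over all genes tested, 3.87% were listed for time with IFNβ and 4.08% in the controls. Counts this small are not read as a property of the list.

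Of 25 genes of cell cycle entry and quiescence, set beside the family because of the role of Slfn2, 4 were listed at 12 h, all higher with IFNβ and all called by limma, where 8.86% of all genes tested were listed and 5.7% listed as higher. A count this small is not read as a property of the list. The 4 were the cyclin D genes Ccnd1 (3.32 ± 0.24) and Ccnd2 (2.70 ± 0.18), the cell cycle inhibitor gene Cdkn1a (1.76 ± 0.18) and Myc (1.07 ± 0.19), which do not act in a single direction on the cell cycle. In time, 3 of the 25 were listed in the controls and 1 with IFNβ, where 4.08% and 3.87% of all genes tested were. Klf4 was lower at 24 h in both tables (-1.15 ± 0.21 in the controls and -1.70 ± 0.22 with IFNβ). In the controls Cdkn1a (-1.22 ± 0.20) was lower and Ccnd1 (1.49 ± 0.27) was higher.

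The sorted cells were labelled monocytes, and 2 of 9 monocyte and macrophage markers were listed at 12 h, Ly6c2 and Fcgr1, both higher with IFNβ. Over all genes tested, 8.86% were listed and 5.7% listed as higher, and counts over marker lists this short are not read as a result. The summed normalized count of Ly6c2 and Fcgr1 was 24761 to 25121 in the controls and 193115 to 249525 with IFNβ. Of 9 markers of T and NK cells, in which Slfn1 and Slfn2 are also expressed, 3 were listed, all higher. Their summed counts were 2540 to 2923 in the controls and 6882 to 9923 with IFNβ, most of it Il7r. Without IFNβ, Il7r was also higher at 24 h than at 12 h (log2 difference 1.46 ± 0.18, limma adjusted p = 0.00487). Gzmb and Gzma made up the rest of the sum at 12 h, and the levels of the 6 markers that were not listed are unknown. Among 6 markers of dendritic cells, Xcr1 was higher and 3 others were lower, with summed counts of 1982 to 2070 in the controls and 667 to 858 with IFNβ. Of 6 B cell markers only Blk was listed, lower and not called by limma (14.96 to 40.02 in the controls, 3.996 to 10.27 with IFNβ). The part of these cells in the Slfn differences was not tested.

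For each Slfn gene the most similar profiles among the other 1387 genes listed at 12 h were found. The measure was Euclidean distance between log2 profiles over the 6 libraries after removing each gene's mean. All these genes were selected for a difference at 12 h, so a small distance largely means a log2 difference of like size. For Slfn2, at 1.60, the 3 nearest were at 1.58, 1.53 and 1.56. Nearness is therefore not read as shared regulation. Slfn2 had the closest neighbours: Psmb8, an immunoproteasome subunit gene (distance 0.103), H3f3b (0.156) and Npc2 (0.165). Slfn9 lay nearest to Fam26f (0.201) and Trim30a (0.259), and Slfn1 to Cmpk2 (0.226), Rilpl1 (0.349) and Gbp5 (0.425). Slfn8 lay nearest to Trim30d (0.249), the RNA sensor gene Ifih1 (0.320) and Pyhin1 (0.321), and Slfn5 to Axl (0.360), Batf2 (0.404) and Mnda (0.446). Slfn4 lay nearest to BC094916 (0.386), the GTPase gene Gbp6 (0.408) and Chic1 (0.779), and Slfn3 to Gm1966 (0.388) and A530099J19Rik (0.400). No Slfn gene was among the 3 nearest of another.

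Slfn14, a ribosome-bound endoribonuclease known for its role in platelets and red cell precursors, was listed only for time. In the controls it was at 149.9, 36.5 and 49.0 normalized counts at 12 h and at 39.4, 16.3 and 12.7 at 24 h. Replicate 1 was the highest at both times, and its 24 h value lay above replicate 2 at 12 h, so the groups overlapped. The means were 78.5 ± 62.2 and 22.8 ± 14.5 (SD, n = 3), 3.44-fold lower at 24 h. The log2 difference of -1.63 ± 0.60 did not pass in the main fit, which leaves the replicate numbers out (limma adjusted p = 0.601). With the replicate number as a block, which compares libraries of the same number, it passed (-1.63 ± 0.34, limma adjusted p = 0.0310). That block called 473 of the 645 genes listed for this comparison, where the main fit called 277. In the authors' deposited table the log2 fold change is -1.78 with an adjusted p of 0.0357. As background, 0.961% of the genes tested were listed as lower in this table and limma calls 0.341% lower.

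With IFNβ, Slfn14 was at 83.6, 20.0 and 18.4 normalized counts at 12 h and at 9.72, 8.34 and 8.16 at 24 h. The groups did not overlap, as in 98.2% of the genes listed in this table, and replicate 1 at 12 h stood far above the rest. The means of 40.7 ± 37.2 and 8.74 ± 0.857 (SD, n = 3) were 4.65-fold apart, with a log2 difference of -1.74 ± 0.57 that did not pass (limma adjusted p = 0.286). With the replicate block it passed (-1.74 ± 0.50, limma adjusted p = 0.0158). The block called 570 of the 602 genes listed for this comparison, where the main fit called 366, so passing it was the rule among them. In the authors' deposited table the log2 fold change is -2.22 with an adjusted p of 0.0149. Among genes tested for time with IFNβ, 1.72% were listed as lower and limma calls 1.06% lower. Without replicate 1 at 12 h the log2 difference was -1.03 in the controls and -1.06 with IFNβ, so that library carried much of the size in each. With the block but no variance trend, chosen after seeing the data, the call was lost in both (limma adjusted p = 0.105 and 0.256).

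The decline was not shown to differ with IFNβ. The difference between the time changes of Slfn14 with and without IFNβ was -0.13 ± 0.90 (limma adjusted p = 0.9999 over the 224 genes found in both time tables, of which 7.59% passed). That difference turned positive, to 0.56, without IFNβ replicate 1 at 12 h. After rescaling the tables through the 12 h libraries they share with the 12 h table, Slfn14 was at 69.7 ± 55.3 in controls and 45.3 ± 41.4 with IFNβ at 12 h, and at 20.3 ± 12.9 and 9.74 ± 0.955 at 24 h (SD, n = 3). IFNβ against control was -0.70 ± 0.66 at 12 h (limma adjusted p = 0.428) and -0.83 ± 0.50 at 24 h (limma adjusted p = 0.196), so neither passed, and these values set levels across tables that were scaled separately.

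A red cell marker moved with Slfn14. Of 4 erythroid markers 1, Slc4a1, the gene of the red cell anion exchanger band 3, was listed in each time table. It was at 1093, 432 and 357 normalized counts at 12 h and 275, 133 and 40.1 at 24 h in the controls. With IFNβ it was at 389, 157 and 186, and at 95.1, 25.6 and 40.8. Replicate 1 had the highest Slfn14 and the highest Slc4a1 of its group in 4 of 4 groups. Slc4a1 differed between the times by -2.27 ± 0.65 in the controls (limma adjusted p = 0.209) and by -2.25 ± 0.48 with IFNβ (limma adjusted p = 0.0291).

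Slfn14 was also counted against Slc4a1 in each library. There were 13.7, 8.45 and 13.7 Slfn14 counts per 100 of Slc4a1 in the 12 h controls and 14.4, 12.3 and 31.6 in the 24 h controls. With IFNβ there were 21.5, 12.7 and 9.90 at 12 h and 10.2, 32.5 and 20.0 at 24 h. These ratios overlapped between 12 h and 24 h with and without IFNβ. Between libraries of the same number the ratio was higher at 24 h in 3 of 3 in the controls and in 2 of 3 with IFNβ. The part of red cell precursors in the Slfn14 values was not tested.

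**Figure D5:**
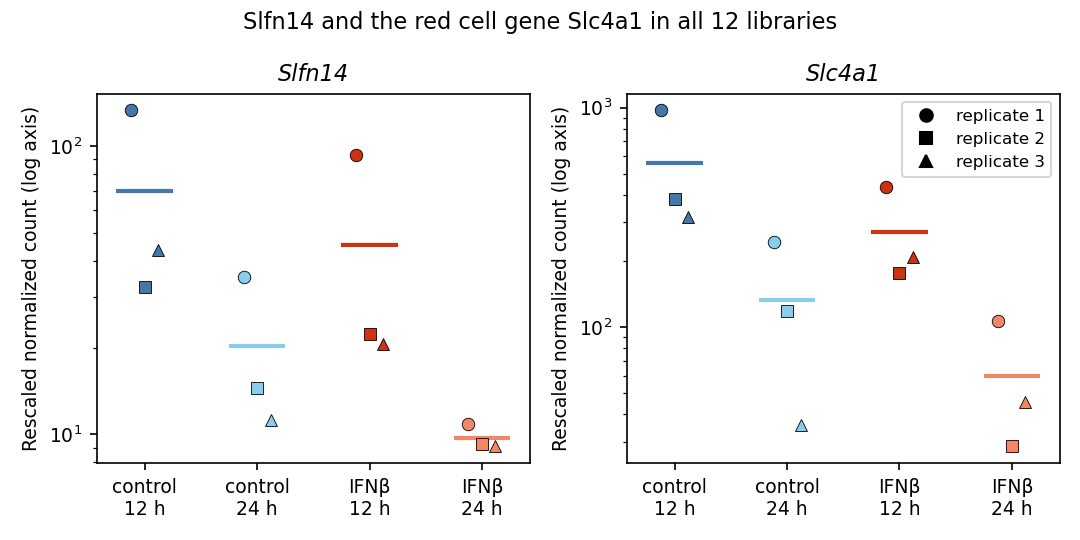
Slfn14 (left) and Slc4a1 (right) in all 12 libraries as normalized counts rescaled to the 12 h table (log axis), one symbol per library and a bar at each group mean. Replicate 1 is the highest of its group in both genes in all 4 groups, and both genes have lower means at 24 h than at 12 h with and without IFNβ.

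The nearest profiles to Slfn14 in the controls, among 644 other genes, were the red cell membrane skeleton gene Epb42 (distance 0.646), Tmcc2 (0.736) and the erythroid membrane gene Ermap (0.946). With IFNβ, among 601, they were Clec4n (0.828), Aldh1a2 (1.07) and Tlr2 (1.16), all at larger distances than the closest in the controls.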

How the data were processed

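RNA sequencing of 12 libraries (4 groups of 3, grouped by the sample labels) was analysed from the authors' files. Per the submitters' processing notes, bcl2fastq, HISAT2 2.2.1 and edgeR 3.3.3 were used on GRCm38. No source used here names the counter, its annotation, the use of strand or a filter on low counts. Library columns are read as a signal: counts that the authors scaled, in each table on its own, to equal library size, judged from the values. Log2 fold changes, p-values and adjusted p-values were deposited by the authors beside them, per the file headers. The ratio of adjusted to raw p at the smallest p gives the number of genes tested: 15661 at 12 h, 15822 for time in controls and 15541 for time with IFNβ.

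From these values, each table was fitted with limma 3.58.1 (R 4.3.3) after adding 1 and taking log2, with the variance trend on, and adjusted by Benjamini-Hochberg over these numbers; the fit was tested on simulated data. No count test was run because the columns are not raw counts. Comparisons across tables used scale factors of 0.884 to 1.13 from shared libraries. Same-numbered libraries correlated in their deviations from group means in all 9 pairs (r 0.159 to 0.400 across genes, other pairs -0.327 to 0.115), so the numbers were taken to pair the samples. The main fits left this pairing out. It entered only the fits with the replicate block and the comparisons between libraries of the same number. Lengths, positions and transcripts came from GENCODE M21, promoters from RefSeq. Python 3.11.15 with pandas 2.3.3, scipy 1.17.1, biopython 1.88 and matplotlib 3.10.9 was used.

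Genes and lists were chosen with earlier results of these data known. Named are all Slfn genes, at most 6 genes per list with the smallest adjusted p, and the 3 nearest profiles; other names belong to counts of 5 or fewer. Some genes that this rule names are not reported here. Alternatives were a pseudocount of 0.1, a filter on low values, a higher fold threshold, no variance trend, the replicate block and leaving out each library.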

Additional observations from a re-analysis of the deposited data

How the results depend on the processing

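At 12 h all 7 Slfn genes were called with another pseudocount, the filter on low values, no variance trend, the replicate block or any single library left out; 5 passed the higher fold threshold (log2 of 2). Of 88 log2 differences under other settings 87 kept the call and 0 changed sign. These include the summed counts of the near-copy pairs, entered under each member, which are not differences of single genes. The exception, chosen after seeing the data, was Slfn3 in the fit with a replicate block and no variance trend (limma adjusted p = 0.0579), where 6 genes were called. For Slfn14 in time, 0 genes were called in either table. The replicate block, with the same differences, called 1 in the controls and 1 with IFNβ, and it changed no other Slfn call. Among all listed genes, that block called 473 of 645 in the controls and 570 of 602 with IFNβ. The Slfn14 difference between time changes ranged from -0.73 to 0.56 over single libraries left out, positive without control 12 h replicate 2 (0.27) or 3 (0.07), control 24 h replicate 1 (0.33) or IFNβ 12 h replicate 1 (0.56), and was 0.35 with all libraries numbered 1 left out. With single libraries left out, its rescaled differences between IFNβ and control ranged from -1.39 to -0.10 at 12 h and from -1.14 to -0.36 at 24 h. The per-kilobase shares depend on gene length: with coding length Slfn5 held 8.04% in the controls and 15.1% with IFNβ, and Slfn9 3.44% and 2.81%. Depth per library is unknown, and Slfn14, at under 10 counts in all IFNβ libraries at 24 h, is the least precise member.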
